A study of Mus musculus with 45 samples.

Results

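The contraction of the uterus was followed here through 10 genes chosen by symbol from the 24422 genes of the count table. They were 6 receptors for contraction-inducing ligands (Oxtr, Ptgfr, Ptger3, Ednra, Chrm2 and Chrm3), the gap junction protein Gja1, the calcium channel subunit Cacna1c, and the potassium channel subunits Kcnma1 and Kcnmb1. All 10 symbols were found, and their levels were compared across 3 uterine tissues and 2 genotypes. In both genotypes 5 of them (Oxtr, Ptger3, Cacna1c, Kcnma1 and Kcnmb1) were lower in the endometrium than in the myometrium. Ednra was lower in KO alone at this threshold, and in both genotypes with the mouse as a block, whereas Gja1 passed it in neither. Ptgfr, Chrm2 and Chrm3 were barely detected. No gene of the 10 differed between the genotypes at the adjusted threshold.

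Smooth muscle of the myometrium contracts when calcium enters the cell through the L-type channel, whose pore is encoded by Cacna1c, and through release from internal stores, and then activates the kinase that phosphorylates myosin. Oxytocin, prostaglandin F2 alpha, prostaglandin E2, endothelin and acetylcholine act on G protein-coupled receptors to raise calcium or to lower cyclic AMP. Gja1 (connexin 43) joins neighbouring muscle cells electrically and is known for its rise before labour. The large-conductance BK channel, with the pore Kcnma1 and the smooth muscle accessory subunit Kcnmb1, opens with calcium and depolarisation and brings the membrane back towards rest.

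The samples came from sexually mature female mice of the outbred CD-1 strain, either wildtype (WT) or lacking Plag1 (Plag1KO, written KO), from a colony kept by breeding heterozygotes. Mice of both genotypes received 5 IU of pregnant mare serum and, 2 days later, 5 IU of human chorionic gonadotropin to induce superovulation, and the uteri were taken the following day, so that the tissues were neither pregnant at term nor unstimulated. From 7 WT and 7 KO mice, 3 tissues were measured: a piece of intact uterine horn (uterus), scraped mucosa (endometrium) and the wall left after scraping (myometrium). RNA was profiled by STRT RNA-seq, which tags the 5′ ends of polyadenylated transcripts, giving 6 groups with 7 mice each. The uterine tissues were compared between genotypes to learn whether loss of Plag1, a zinc finger transcription factor, alters the mother's tract. Plag1 itself had at most 1 count in any library, which checked nothing about the genotype labels.

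Gene counts ranged from 256298 to 1222627 per library, so that 3 counts, taken as the floor of a library, corresponded to 2.45 to 11.7 CPM, the count scaled to a common total per library. Such floors cover counting error only. All 8 smooth muscle markers were lower and all 8 epithelial markers were higher in the endometrium than in the myometrium in both genotypes (edgeR, adjusted p under 0.05). Acta2, a smooth muscle actin, had a log2 fold change of -2.85 ± 0.56 (SE) in WT and -3.84 ± 0.80 in KO. Myh11, the smooth muscle myosin heavy chain, was at -3.25 ± 0.57 and -3.56 ± 0.75, against 2.78 ± 0.43 and 2.89 ± 0.34 for the keratin Krt8 and 2.79 ± 0.40 and 3.18 ± 0.39 for the adhesion molecule Epcam.

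Endometrium from WT mouse 3 and from KO mouse 13 stood apart from the rest in its muscle content. The summed level of the 8 smooth muscle markers was 14197 CPM in WT mouse 3, where the 6 other WT endometria ran from 465 to 4776 CPM. It was 13732 CPM in KO mouse 13, where the other KO endometria ran from 220 to 1082 CPM. Both values fell within the range of whole uterus, which was 9006 to 19075 CPM in WT and 10109 to 21049 CPM in KO, and below that of myometrium, 16974 to 41431 and 22220 to 36963 CPM. Epithelial markers were present in both samples. Without the first mouse Acta2 was at -3.75 and Myh11 at -3.85 in WT, and without the second at -6.44 and -6.21 in KO. The calls between endometrium and myometrium are therefore given with and without these mice. In bulk samples, fewer cells of a type and less RNA per cell cannot be told apart.

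Oxtr encodes the oxytocin receptor, which couples to Gq. Its level in WT myometrium ran from 1.88 to 40.9 CPM with a median of 16.0 (mean 17.3 ± 11.8, SD, n = 7), and in KO myometrium from 3.23 to 31.8 CPM with a median of 12.5 (15.1 ± 9.13). In the endometrium it ran from 0 to 12.1 CPM in WT, with a median of 0, and from 0 to 15.2 CPM in KO, with a median of 1.59. The layers overlapped in range, but each of the 7 WT and 7 KO mice had less Oxtr in its endometrium than in its myometrium. In WT mouse 5 and in KO mouse 9 this was 0 counts against 1, under the floor of 3 counts. Whole uterus lay between the layers, at 5.73 ± 4.67 CPM in WT and 7.27 ± 5.16 CPM in KO.

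The prostaglandin receptors differed in how well they were seen. Ptger3 encodes the EP3 receptor for prostaglandin E2, which couples mainly to Gi. In WT myometrium it ran from 13.1 to 41.7 CPM with a median of 24.0, whereas the WT endometrium reached 6.70 CPM at most, so that these groups did not overlap. In KO myometrium Ptger3 ran from 10.7 to 32.9 CPM with a median of 28.0, above every KO endometrium except that of mouse 13, at 12.3 CPM. The other KO endometria held 0 to 2.18 CPM. Ptgfr encodes the FP receptor for prostaglandin F2 alpha, the ligand known for ending the luteal phase and driving labour in rodents. It had 36 counts in all 42 samples together and rose above the floor of 3 counts in 3 of them. WT endometrium held 0 counts in all 7 mice and WT myometrium 12 counts in total, with 0 in 3 of the 7 myometria. With 3 counts taken for the whole WT endometrium group, the pooled myometrial level of Ptgfr was 3.85-fold higher. This value leaves out the counting error of the 12 counts and is not a firm bound. Of these 12 counts 6 lay in mouse 10, and without that mouse the value was 1.92-fold. KO endometrium held 2 counts and KO myometrium 10.

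Ednra encodes the endothelin A receptor, which also couples to Gq. Its myometrial level was 10.7 ± 6.61 CPM in WT and 10.8 ± 6.16 CPM in KO, and its endometrial level 3.50 ± 4.00 and 3.55 ± 1.64 CPM. The ranges overlapped in both genotypes. Unlike the other receptors, Ednra in WT whole uterus stood at the level of the myometrium, at 10.4 ± 4.32 CPM, with 6.59 ± 2.32 CPM in KO.

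The muscarinic receptors were close to undetected. Chrm2, the Gi-coupled receptor of smooth muscle, had 7 counts in all samples together, and Chrm3, the Gq-coupled receptor, had 19. Neither passed 3 counts in any sample. Of the 19 counts of Chrm3, 11 lay in WT endometrium, spread over 6 of the 7 mice, and 0 in KO endometrium. Uterus held 5 in WT and 0 in KO, and myometrium 1 and 2. No sample passed the floor, and no fold change is given for them. Nerve markers, examined because acetylcholine reaches the uterus through nerves, summed to 0 to 25.8 CPM over all samples, and Tubb3 was at 0 in all 6 groups.

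Gja1 was the gene of the 10 seen most evenly, with 1 CPM or more in all 42 samples, as was Kcnma1. In WT its mean was 24.1 ± 18.8 CPM in uterus, 25.4 ± 14.0 in endometrium and 17.9 ± 7.98 in myometrium. In KO the means were 19.4 ± 10.1, 19.0 ± 10.1 and 22.3 ± 9.53 CPM. The order of the tissues differed between the genotypes and no neighbours in it differed beyond their spread. The highest value, 65.4 CPM, was in a WT uterus, and the lowest, 3.54 CPM, in the endometrium of WT mouse 10.

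Cacna1c, the pore of the L-type calcium channel, ran from 6.47 to 37.5 CPM in WT myometrium with a median of 22.1, and from 13.0 to 26.7 CPM in KO myometrium with a median of 19.2. Its highest endometrial value was 5.36 CPM in WT and 8.23 CPM in KO, the latter in mouse 13, so that the layers did not overlap in either genotype. The nearest WT values were both of mouse 3, 3 counts in its myometrium and 4 in its endometrium. The WT gap therefore lies at the floor of 3 counts. In whole uterus Cacna1c was at 6.53 ± 1.66 CPM in WT and 7.23 ± 5.94 in KO, nearer to the endometrium than to the myometrium.

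The 2 subunits of the BK channel were the potassium channel genes of this set. Kcnmb1 had the highest counts of the 10 genes, 1338 in total. In myometrium it ran from 42.7 to 119 CPM in WT, with a median of 72.1, and from 55.4 to 132 CPM in KO, with a median of 88.3. In endometrium its median was 3.86 CPM in WT and 1.39 CPM in KO. The endometria of WT mouse 3, at 44.2 CPM, and of KO mouse 13, at 30.4 CPM, were the exceptions, and the first of these alone reached the range of the WT myometrium. Kcnma1 ran from 13.1 to 42.03 CPM in WT myometrium with a median of 30.2, and from 15.7 to 68.7 CPM in KO myometrium with a median of 35.5. It was still present in every endometrium, at 1.62 to 20.0 CPM in WT and 2.85 to 16.9 CPM in KO.

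**Figure D1:**
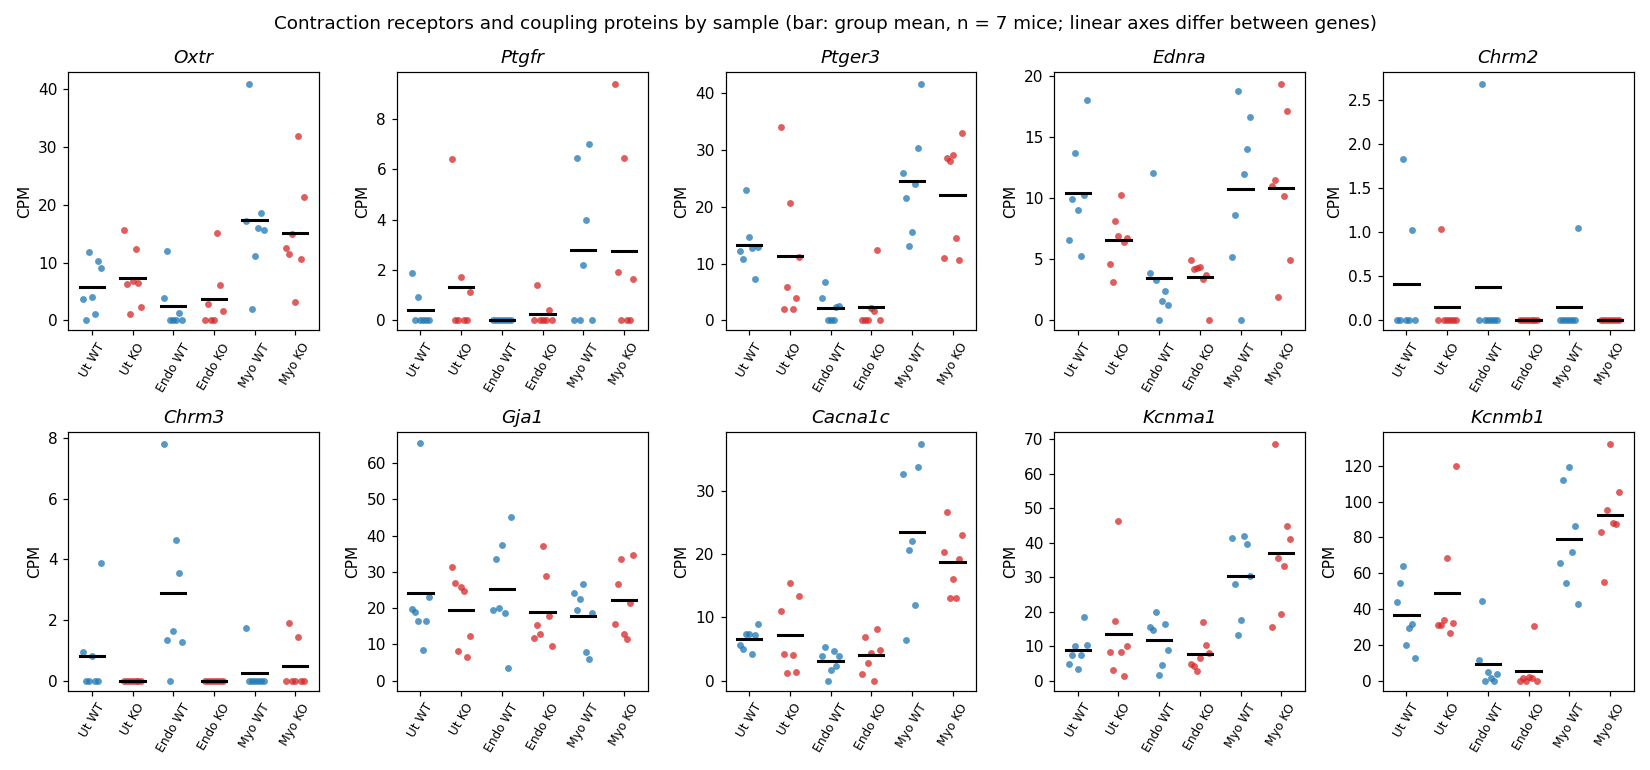
Level of each of the 10 genes in CPM (linear vertical axes, scaled separately for each gene) in uterus (Ut), endometrium (Endo) and myometrium (Myo) of WT (blue) and KO (red) mice. Points are the 7 mice of a group and the black bar is the group mean. Kcnmb1, Ptger3 and Cacna1c stand high in the myometrium, Gja1 overlaps between all groups, and Chrm2 and Chrm3 hold few counts.

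The sequences upstream of Kcnmb1 and Kcnma1 are shown because the subunits of 1 channel were distributed differently outside the myometrium, with that of Gja1, which passed the threshold in neither genotype, beside them. They are the 250 bases before the RefSeq start in GRCm38.p6, 5′ to 3′ on the strand of the gene, with CG dinucleotides in capitals. The Kcnmb1 window lies on the plus strand at chr11:33962763-33963012, the Kcnma1 window on the minus strand at chr14:24004206-24004455 and the Gja1 window on the plus strand at chr10:56377050-56377299.
Kcnmb1: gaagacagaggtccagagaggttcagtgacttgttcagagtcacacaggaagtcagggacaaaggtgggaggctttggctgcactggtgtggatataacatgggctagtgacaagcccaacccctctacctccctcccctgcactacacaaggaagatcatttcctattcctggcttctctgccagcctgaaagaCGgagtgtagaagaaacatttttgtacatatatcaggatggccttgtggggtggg
Kcnma1: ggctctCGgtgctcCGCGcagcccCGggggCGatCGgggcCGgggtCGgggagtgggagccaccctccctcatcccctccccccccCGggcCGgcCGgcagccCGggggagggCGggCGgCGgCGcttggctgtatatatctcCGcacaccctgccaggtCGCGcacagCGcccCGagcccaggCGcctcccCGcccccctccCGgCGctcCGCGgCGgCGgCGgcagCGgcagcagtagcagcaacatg
Gja1: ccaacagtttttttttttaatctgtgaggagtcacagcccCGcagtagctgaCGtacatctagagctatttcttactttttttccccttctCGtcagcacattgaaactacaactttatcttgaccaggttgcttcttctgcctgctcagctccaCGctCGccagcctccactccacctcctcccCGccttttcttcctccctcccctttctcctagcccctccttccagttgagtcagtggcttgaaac
The Kcnmb1 window held 1 CG dinucleotide and 50.8% G and C, against 31 and 79.2% for Kcnma1 and 6 CG dinucleotides for Gja1. The medians over all 32851 windows of this length were 6 CG dinucleotides and 52.4% G and C. The CArG box, the motif bound by serum response factor in many smooth muscle promoters, was searched on both strands and was found in 0 of the 12 windows of the 10 genes and in 1.47% of all windows. This says only that the motif was not in these windows.

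To ask which of these genes separate the layers, endometrium was compared with myometrium in each genotype with edgeR's quasi-likelihood test over all genes. In WT, 5 of the 8 genes that could be tested were lower in the endometrium and 0 were higher. Across all 13227 genes tested, 6.39% were called lower and 6.81% higher. Ptger3 fell most, with a log2 fold change of -3.38 ± 0.52 (SE; adjusted p = 6.09e-05), and was lower in 7 of 7 mice. Kcnmb1 followed at -3.03 ± 0.55 (adjusted p = 0.000377), Cacna1c at -2.89 ± 0.46 (0.000100) and Oxtr at -2.72 ± 0.68 (0.00711), each lower in 7 of 7 mice. For Oxtr in mouse 5 this was 0 counts against 1. Kcnma1 fell less, by 1.54 ± 0.40 on the log2 scale (adjusted p = 0.00950, lower in 6 of 7 mice). Ednra was at -1.69 ± 0.62 (adjusted p = 0.0718) and Gja1 at 0.45 ± 0.42 (adjusted p = 0.564). Chrm3 entered this fit through the endometrium, where 6 samples reached 1 CPM against 1 of the myometrium, on counts of 3 or fewer, so nothing is read from its test.

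In KO mice, 6 of 8 genes tested were lower in the endometrium and 0 were higher, where 8.71% of all 12969 genes were called lower and 10.6% higher. The log2 fold change was -3.59 ± 0.58 for Kcnmb1 (SE; edgeR adjusted p = 9.90e-05), -2.60 ± 0.61 for Ptger3 (0.00344), -2.25 ± 0.36 for Kcnma1 (9.29e-05), -2.05 ± 0.59 for Oxtr (0.0162), -2.04 ± 0.44 for Cacna1c (0.00182) and -1.49 ± 0.49 for Ednra (0.0323). Kcnmb1, Kcnma1, Oxtr and Cacna1c were lower in 7 of 7 mice and Ptger3 and Ednra in 6 of 7. For Oxtr in mouse 9 this was 0 counts against 1. Gja1 was at -0.35 ± 0.33 (adjusted p = 0.515; 0.12 with spike-in scaling). Ptgfr entered through the myometrium, with 4 samples at 1 CPM or more against 1, and nothing is read from its test. Without overlap between the layers stood Ptger3 and Cacna1c in WT, where 1.60% of all genes were lower without overlap, and Cacna1c and Kcnmb1 in KO, where 2.58% were. For Cacna1c in WT the lowest myometrial value was 3 counts, in mouse 3, so its gap lies at the floor. All 11 calls of both genotypes had the same direction in mice 1 to 8 (plate rows A to C) as in mice 9 to 14 (rows D to F).

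**Figure D2:**
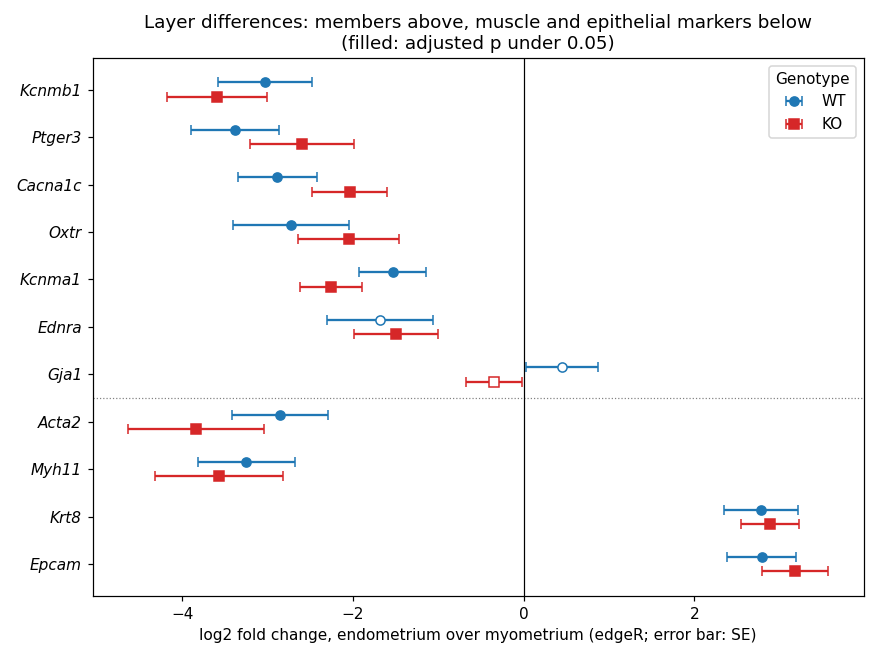
Log2 fold change of endometrium over myometrium (horizontal axis; edgeR, error bars are SE) in WT (blue circles) and KO (red squares), for 7 genes of the set above the dotted line and for markers of smooth muscle (Acta2, Myh11) and epithelium (Krt8, Epcam) below it. Filled symbols passed an adjusted p of 0.05, 5 genes of the set in WT and 6 in KO, and Gja1 lies near 0 in both genotypes.

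The muscle-rich endometria carried a large share of the counts behind these levels. KO mouse 13 held 74 of the 77 Kcnmb1 counts of KO endometrium and 30 of 32 Ptger3 counts, with 37.1% of the depth of the group. It held 15 of 27 Oxtr counts and 20 of 33 Cacna1c counts. Its Oxtr level was 6.17 CPM, however, and the highest of the KO endometria was that of mouse 11. That sample had 9 counts of Oxtr (15.2 CPM) and 886 CPM of smooth muscle markers. WT mouse 3 held 33 of the 43 Kcnmb1 counts of WT endometrium, 9 of 11 for Oxtr and 9 of 15 for Ednra, with 17.8% of the depth. Gja1 did not follow this pattern in either mouse: KO mouse 13 held 37.4% of its counts, and WT mouse 3 held 22.9%. Ednra in KO mouse 13 (37.5%) and Kcnma1 in WT mouse 3 (23.9%) were similar. In the other mouse their shares were higher, 60% for Ednra in WT mouse 3 and 47.2% for Kcnma1 in KO mouse 13. The log2 fold change of Gja1 was -0.43 without KO mouse 13 and 0.38 without WT mouse 3, past the threshold in neither (edgeR).

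Without KO mouse 13 the log2 fold change of Kcnmb1 moved from -3.59 to -6.73 and that of Ptger3 from -2.60 to -5.19. Oxtr was then at -2.51, Kcnma1 at -2.42 and Cacna1c at -2.53, all still past the threshold (edgeR). The KO endometria left held 3 counts of Kcnmb1 in total and 0 to 2.18 CPM of Ptger3 per sample. The size of these 2 changes is therefore limited by the floor. Without WT mouse 3, Kcnmb1 moved from -3.03 to -4.60, Oxtr from -2.72 to -4.19 and Ptger3 from -3.38 to -4.05, with Cacna1c at -3.24 and Kcnma1 at -1.66. The WT endometria left each held 3 counts or fewer of Kcnmb1, Oxtr and Ptger3, so the same limit holds. Ednra in WT was then at -2.66 and past the threshold (adjusted p = 0.0100). It passed also with the mouse as a block (-1.88, adjusted p = 0.0192). In KO the call of Ednra was lost when mouse 2, 4, 9, 11 or 13 was left out, with log2 fold changes between -1.60 and -1.38 and adjusted p between 0.0566 and 0.0867. It was lost also with the first repeat library alone of each sample (-1.22, adjusted p = 0.0923). Kcnma1 in WT lost its call without mouse 8 (-1.26, adjusted p = 0.0555), and Oxtr in KO without mouse 14 (-1.88, adjusted p = 0.0615).

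**Figure D3:**
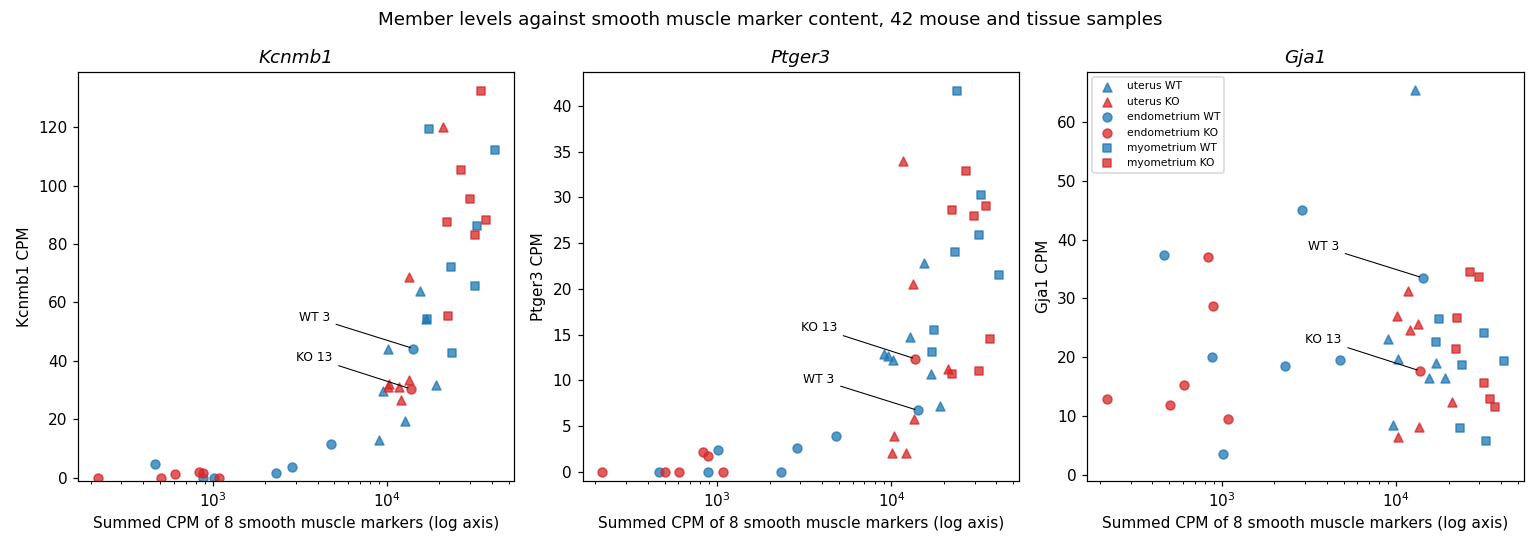
Level of Kcnmb1, Ptger3 and Gja1 (vertical axes, CPM) against the summed level of 8 smooth muscle markers (horizontal log axis, CPM) in 42 samples; triangles are uterus, circles endometrium and squares myometrium, with WT in blue and KO in red. Kcnmb1 and Ptger3 are near 0 in endometria of low marker content and higher in WT mouse 3 and KO mouse 13, at 14197 and 13732 CPM of markers, while Gja1 is spread over the same range at all contents.

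Set against the muscle markers within each mouse, Kcnmb1 came nearest to them. Its endometrial difference on the log2 scale was above that of the mean of the 8 markers by a median of 0.58 in WT and 0.84 in KO. For Ptger3 this gap was 1.20 and 2.75, for Oxtr 1.70 and 3.66, for Cacna1c 1.83 and 3.30 and for Kcnma1 1.90 and 3.95. Gja1 had the widest gap of the genes with more than 5 CPM, 4.12 in WT and 5.50 in KO. The prior count of 2 limits the difference of low genes, so these gaps are a description and the part of muscle content in the layer differences was not tested.

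The BK subunits were not found in 1 proportion. In myometrium the summed counts gave 2.38 Kcnmb1 counts for each Kcnma1 count in WT and 2.43 in KO. In whole uterus the ratio was 4.45 and 4.09, and in endometrium 0.935 and 1.45. The ratios of single samples overlapped between uterus and myometrium. They ran from 1.25 to 9.4 and from 1.41 to 6.75 in WT, and from 1.48 to 25 and from 0.81 to 6.83 in KO. Their medians in uterus and myometrium were 6 and 2.18 in WT and 3.78 and 2.65 in KO, a difference that was not tested. Kcnmb1 exceeded Kcnma1 in 7 of 7 uteri of each genotype and in 7 WT and 6 KO myometria, but in 2 of 7 WT and 1 of 7 KO endometria. KO mouse 13 and WT mouse 3 set the endometrial ratios of the sums, which were 0.107 without the first and 0.286 without the second, and the medians over samples were 0.10 in KO and 0.43 in WT. These ratios compare the tissues with each other and are not a stoichiometry, since each gene is captured at its own 5′ end.

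Whole uterus was compared with the layers it contains. These contrasts share the myometrium and endometrium samples with those above. In WT, Cacna1c (log2 fold change -1.72 ± 0.35, SE; adjusted p = 0.00292) and Kcnma1 (-1.65 ± 0.36; 0.00461) were lower in uterus than in myometrium, 2 of 8 genes tested where 5.32% of all genes were called lower. Both were lower in 7 of 7 mice. Kcnmb1 was at -0.92 ± 0.31 (adjusted p = 0.0538), and at -1.02 (0.00650) with the mouse as a block. Without WT mouse 5 the calls rose from 2 to 5, with Kcnmb1, Oxtr and Ptger3 added. That mouse had the most epithelial markers of the WT myometria, 1015 CPM where the others held 135 to 364. In KO 1 of 8 was called, Kcnma1 (-1.34 ± 0.44; adjusted p = 0.0392), where 6.06% of all genes were. With the mouse as a block 3 were called, Kcnma1, Cacna1c (-1.39; 0.0153) and Kcnmb1 (-0.86; 0.00713). The call of Kcnma1 in KO was lost on leaving out mouse 2, 4, 6, 11, 13 or 14, with values between -1.48 and -0.99, and without mouse 9 it was at -1.98. On leaving out mouse 2, 9 or 14, Ptger3 (-1.46), Cacna1c (-1.38) or Kcnmb1 (-1.05) was called in turn.

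Uterus against endometrium gave 1 call in each genotype. In WT it was Ptger3 (log2 fold change 2.62 ± 0.54, SE; adjusted p = 0.0134), higher in 7 of 7 uteri and without overlap, where 1.05% of all genes were called higher and 0.420% were higher without overlap. Without WT mouse 5 its adjusted p was 0.0521, and without WT mouse 3 the calls rose from 1 to 4 with Kcnmb1 (3.60), Oxtr (3.33) and Ednra (2.64). In KO it was Kcnmb1 (2.93 ± 0.66; adjusted p = 0.0310), where 0.926% of all genes were called higher. Kcnmb1 rose to 6.02 without KO mouse 13, when Ptger3 was called too (4.47), and its adjusted p lay between 0.0690 and 0.0959 without any 1 of the other 6 KO mice. In the fits without WT mouse 3 or KO mouse 13, each endometrium held 3 counts or fewer of the genes named. The size of these values is therefore limited by the floor. With the mouse as a block, WT had 3 calls, adding Kcnmb1 (2.62; 1.82e-05) and Ednra (1.94; 0.0251), and KO had 2, adding Ptger3 (2.55; 0.0497). Hence the middle position of whole uterus held in both genotypes for the means of Oxtr, Ptger3, Cacna1c and Kcnmb1. It held also for those of Ednra, at 10.4 CPM in WT uterus against 10.7 in myometrium, and of Gja1, whose layers were not called different. The neighbours of whole uterus in the order were separated by a call only where named above. The uterus mean of Kcnma1 was below that of the endometrium in WT, at 8.81 against 11.7 CPM. In KO it lay between the layers, at 13.5 CPM against 7.66 in endometrium and 36.9 in myometrium. Uterus and endometrium differed in Kcnma1 by -0.14 ± 0.45 in WT and 0.93 ± 0.54 in KO, past the threshold in neither (edgeR adjusted p = 0.920 and 0.441).

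The genotypes were then compared within each tissue. They were not balanced over the plate, with 5 WT and 3 KO mice in rows A to C and 2 WT and 4 KO in rows D to F. By edgeR, 0 of 7 genes tested were called in uterus, 0 of 8 in endometrium and 0 of 8 in myometrium, where 0% of all genes were called in each tissue. At an unadjusted p under 0.05 the counts were 0, 1 and 0, against 5.64%, 5.20% and 4.22% of all genes, and DESeq2 gave the same counts at both thresholds. In uterus the smallest p was that of Ednra (log2 fold change of KO over WT -0.59 ± 0.37, SE; adjusted p = 0.902). The exact permutation p of its log2 CPM was 0.147 over all mice, 0.143 within plate rows A to C and 0.200 within rows D to F. In myometrium it was that of Gja1 (0.39 ± 0.36; edgeR adjusted p = 0.9999), with exact permutation p of 0.331, 0.571 and 0.333. The 4 KO and 2 WT mice of rows D to F allow 15 splits, too few for an exact p under 0.05. Nothing is therefore read from the p of those rows.

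In endometrium the 1 gene at an unadjusted p under 0.05 was Chrm3, with 11 counts in 6 of 7 WT mice and 0 in KO (edgeR adjusted p = 0.598). It entered the fit only through the WT samples and no sample held more than 3 counts, so nothing is read from its p. Without WT mouse 3 or KO mouse 13 the count of calls in endometrium stayed at 0 of 8 genes tested. The interaction of genotype and layer called 0 of 9 genes (edgeR and DESeq2), with 1 at an unadjusted p under 0.05 by both tools, again Chrm3, where 0% of all 14314 genes were called and 4.60% had an unadjusted p under 0.05. The larger fold changes of Kcnma1 in KO and of Cacna1c in WT between the layers were therefore not shown to differ between the genotypes.

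**Figure D4:**
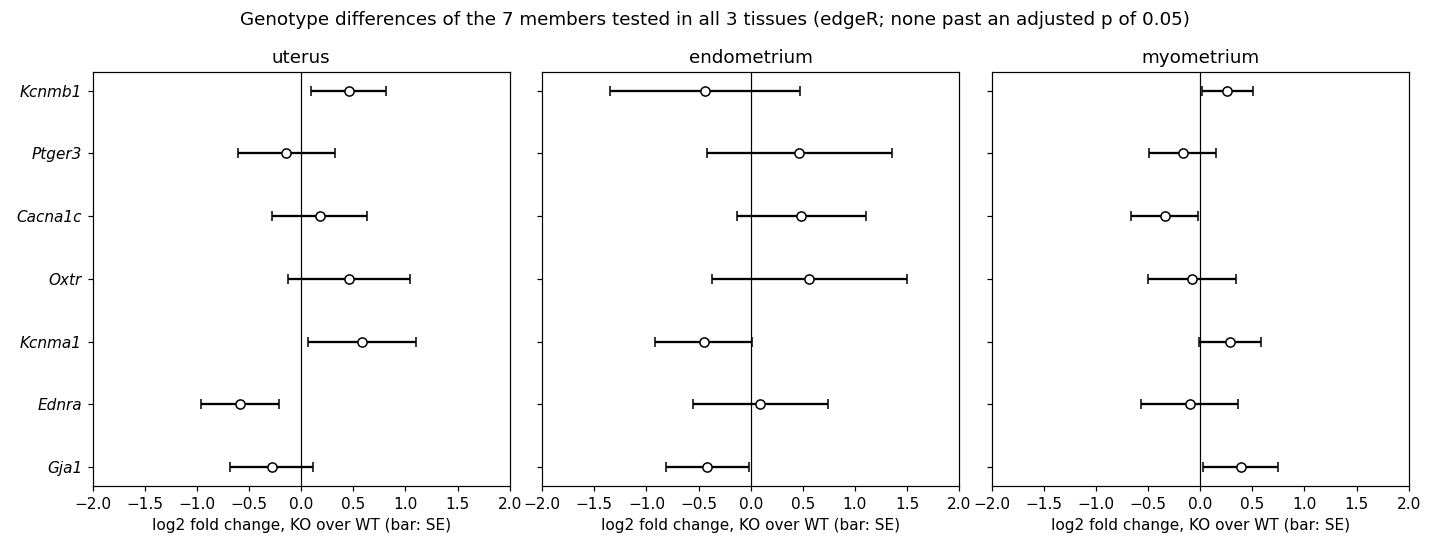
Log2 fold change of KO over WT (horizontal axes; edgeR, error bars are SE, n = 7 mice per genotype) in uterus, endometrium and myometrium for the 7 genes tested in all 3 tissues. No value passed an adjusted p of 0.05, and the error bars of most of the 7 genes are widest in the endometrium.

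The wider contraction pathway was described by lists that left out the 10 genes. The counts stand beside the shares of all genes called lower and higher in the endometrium, 6.39% and 6.81% in WT and 8.71% and 10.6% in KO, or 6.06% and 6.04% without WT mouse 3 and 8.73% and 8.70% without KO mouse 13. The part of muscle content in these counts was not tested. Of 9 other contractile receptors tested in WT, 1 was lower and 1 higher in the endometrium, and of 7 tested in KO, 0 moved. Without WT mouse 3 the counts in WT were 2 lower and 0 higher, with Agtr1a called lower (-1.90), and without KO mouse 13 they were 0 lower and 1 higher in KO. With all mice the most abundant were Lpar1, a receptor for lysophosphatidic acid (log2 fold change 0.03 in WT and 0.37 in KO), Ednrb, the endothelin B receptor (1.18 and 1.04), S1pr2, a receptor for sphingosine 1-phosphate (-0.90 and -0.25), and Agtr1a, an angiotensin receptor (-1.33 and -1.20), and none of these 4 passed the threshold. Ednrb thus had a value above 0 where Ednra had one below 0, in both genotypes. Of the ligands and processing enzymes of these receptors, 0 of 5 moved in WT and 0 of 4 in KO, also without these mice, with the endothelin-converting enzyme Ece1 at -0.12 and 0.49, the ligand Edn1 at 0.08 and 0.41, the ligand Edn3 at 0.93 and 1.89, and the oxytocin-degrading enzyme Lnpep at -1.76 and -1.17.

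Of the receptors that relax the muscle and their accessory proteins, 4 of 17 tested were lower and 2 higher in WT endometrium, and 5 of 16 were lower and 1 higher in KO, or 6 lower and 1 higher without KO mouse 13. In WT the counts were as before without mouse 3. Ramp1, which with its partner forms the receptor for calcitonin gene-related peptide, was lower in both genotypes (-1.75 ± 0.28 and -1.35 ± 0.24, SE). Gucy1a3, a subunit of the nitric oxide receptor guanylyl cyclase, was lower in KO (-1.32 ± 0.33) and at -1.01 in WT, whereas Ramp2 (-0.12 and -0.09) and the natriuretic peptide receptor Npr1 (-1.12 and 0.11) did not pass in either. Among gap junction proteins 2 of 9 tested were higher and 1 lower in WT endometrium, and 1 of 9 was higher and 2 lower in KO. Without WT mouse 3 the counts were unchanged, and without KO mouse 13, with 7 genes tested, 1 was higher and 1 lower. Gjb1 (connexin 32) was higher by 2.65 ± 0.62 in WT and 3.25 ± 0.55 in KO, and Gjb2 (connexin 26) was higher in WT (2.61 ± 0.73; 1.89 in KO). Both are known from epithelia. Gja4 (-0.34 and -0.10) and Gjc1 (-0.74 and -0.83) did not pass.

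Of calcium and chloride channel genes 4 of 17 tested were lower in WT endometrium and 0 higher, and 4 of 18 were lower and 1 higher in KO, or 5 lower and 1 higher without KO mouse 13 and again 4 lower and 0 higher without WT mouse 3. The 4 most abundant, the store calcium sensor Stim1 (-0.83 and -0.53), the channel subunit Cacnb3 (-0.14 and -0.49), the chloride transporter Clcn3 (1.15 and 0.71) and the calcium-activated chloride channel Ano1 (0.79 and 0.64), did not pass. Of the other potassium channel genes 6 of 18 were lower and 3 higher in WT endometrium, and 8 of 18 were lower and 1 higher in KO. Without WT mouse 3 they were 8 lower and 3 higher of 18, and without KO mouse 13 they were 8 lower and 1 higher of 16. Kcnj8, the pore of a channel gated by ATP, was lower, at -2.21 ± 0.33 and -1.17 ± 0.30 (SE), the accessory subunit Kcne4 at -2.80 ± 0.48 and -3.91 ± 0.60, and Kcnh2, the ERG1 channel, at -2.62 ± 0.53 and -3.72 ± 0.54. Kcne4 was at -3.69 without WT mouse 3 and -5.74 without KO mouse 13, and Kcnh2 at -5.79 without KO mouse 13. Kcnq1 was higher in WT (1.95 ± 0.66) and missed the threshold in KO (adjusted p = 0.0653).

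Downstream of the receptors, 8 of 30 genes of G protein and store calcium signalling were lower and 2 higher in WT endometrium, and 11 of 30 were lower and 1 higher in KO, or 7 and 2 without WT mouse 3 and 11 of 29 and 1 without KO mouse 13. Rgs2, which shortens Gq signals, was lower in both genotypes (-0.97 ± 0.31 and -1.78 ± 0.35, SE) and Gnas, the stimulatory G protein, in KO (-0.83 ± 0.29; -0.03 in WT). The inhibitory G protein Gnai2 (-0.04 and -0.07) did not pass, also without WT mouse 3 (0.62). Of 15 genes that set myosin phosphorylation, 8 were lower in WT endometrium and 11 in KO, and 0 were higher, or 9 and 11 without WT mouse 3 and KO mouse 13. The regulatory light chain Myl9 (-2.93 ± 0.55 and -3.21 ± 0.75), the light chain kinase Mylk (-2.27 ± 0.36 and -1.98 ± 0.43) and the phosphatase inhibitor Ppp1r14a (-2.81 ± 0.37 and -2.79 ± 0.34) were lower in both, whereas the small GTPase Rhoa was at -0.02 and 0.09. Myl9 was at -3.82 without WT mouse 3 and -5.96 without KO mouse 13, and Mylk at -3.05 without the latter. Of all these lists, 0 genes were called between the genotypes in any tissue, as of all genes (edgeR).

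Across the 42 samples the 7 genes with a mean of at least 5 CPM were compared with 9141 genes by the Pearson correlation of their log2 CPM. The samples share mice, tissues and depth, so these values are descriptions. Kcnmb1 was most like Rprm (r = 0.96) and Fbxl22 (0.95), Cacna1c most like Cap2 (0.91) and 1700001O22Rik (0.85), and Ptger3 most like Pnck (0.89) and Postn (0.89). For Kcnma1 the nearest were Trps1 (0.81) and Kank1 (0.81), for Oxtr Adamts2 (0.77) and Flnc (0.76), for Ednra Tnnt3 (0.70) and Sh3kbp1 (0.69), and for Gja1 Cenpf (0.65) and Angptl4 (0.61). Among the genes of the set themselves, Kcnmb1 and Ptger3 had the highest value (0.84), followed by Cacna1c and Ptger3 (0.77). Kcnmb1 and Kcnma1, the parts of 1 channel, were at 0.52, and Gja1 was between -0.05 and 0.16 with each of the others.

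In the annotation of build NCBIM37, the build called mm9, Kcnmb1 (chr11:33863013-33873641, plus strand) overlaps Kcnip1 on the opposite strand, Cacna1c (chr6:118542314-119146249, minus strand) overlaps Dcp1b, and Ednra (chr8:80186930-80248363, minus strand) overlaps 4933431K23Rik. The use of strand in counting is not given in the sources used here, so that reads of such pairs cannot be told apart. Kcnip1 averaged 1.67 to 5.62 CPM by group, far below Kcnmb1 in the myometrium. In the endometrium Kcnip1 averaged 2.75 CPM in WT and 1.67 CPM in KO, near the Kcnmb1 medians of 3.86 and 1.39 CPM. Dcp1b averaged 7.00 to 15.4 CPM by group. In the endometrium it was above Cacna1c, at 7.00 against 3.11 CPM in WT and 7.63 against 4.02 CPM in KO. In the myometrium it was below Cacna1c, at 15.4 against 23.6 CPM in WT and 11.1 against 18.8 CPM in KO. The annotation has Oxtr (chr6:112423678-112440884, minus strand), Ptger3 (chr3:157229856-157307722, plus strand), Ptgfr (chr3:151461882-151500594, minus strand), Gja1 (chr10:56097106-56110225, plus strand) and Kcnma1 (chr14:24117983-24622526, minus strand) without overlap.

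Each tissue was placed in its own rows of the library plate, uterus in A and D, myometrium in B and E and endometrium in C and F, so that tissue and plate row cannot be told apart in most libraries. The repeat libraries were the exception. The 3 endometrium libraries of KO mouse 13 lay in rows D, E and F and held 22, 20 and 32 counts of Kcnmb1 and 11, 8 and 11 of Ptger3. At their own depths this was 23.7, 32.6 and 35.9 CPM of Kcnmb1 and 11.9, 13.0 and 12.4 CPM of Ptger3. Oxtr held 6, 2 and 7 counts there. Ednra was uneven, with 8, 0 and 1 counts (8.62, 0 and 1.12 CPM). The 2 myometrium libraries of WT mouse 12 lay in rows E and F and held 20 and 21 counts of Kcnmb1 and 13 and 27 of Ptger3. Their Oxtr counts were 10 and 5 and their Ednra counts 7 and 9.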

How the data were processed

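The authors deposited raw counts, whole numbers per gene symbol with no scaling, for 24422 genes, 92 ERCC spike-ins and 45 libraries. Per the methods of the study, reads were demultiplexed, joined by molecular identifier, trimmed, aligned with TopHat to mm9 and counted with Homer, while the submitters' processing notes name HTSeq. Groups came from the labels. Repeat libraries of 1 mouse (3 for KO mouse 13 endometrium, 2 for WT mouse 12 myometrium) were summed, since they differed by more than sampling noise but were 1 animal, which left 42 samples. Spike-ins were left out of totals and tests.

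A gene entered a fit when 5 or more of its samples reached 1 CPM. The fits used the quasi-likelihood test of edgeR 4.0.16 in R 4.3.3 with TMM scaling, with p-values adjusted by Benjamini-Hochberg over all genes tested, threshold 0.05. The SE was the log2 fold change divided by the root of F. By this filter 7 of the 10 genes were tested in all 10 contrasts, Ptgfr in 5, Chrm3 in 4 and Chrm2 in 0. Exact permutation tests were two-sided. Log2 CPM used a prior count of 2. The scripts were tested on simulated data.

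The tissues of a mouse come from the same animal, so the number in the labels pairs them. Over 14822 genes the deviations of endometrium and myometrium correlated at a mean of 0.0984 in WT and 0.145 in KO within mice, and at -0.0165 and -0.0241 between mice. The study's methods state no block, so the block was an alternative. The other alternatives were spike-in scaling, DESeq2 1.42.0, relative log expression factors, dropping the filter, raising it to 10 CPM, the first repeat library, all 6 groups in 1 fit, plate rows as a covariate and each mouse left out.

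The 10 genes and the other lists were chosen with earlier results of these data known. From each pathway list the 4 genes with the highest mean CPM were named, except 1 gene of the signalling list that is not reported here, and for genotype contrasts the gene of the 10 with the smallest p. For genes of the set with a mean of at least 5 CPM, the 2 most correlated genes were named. Promoter sequences came from RefSeq in GRCm38.p6, whose coordinates were not mixed with those of the counts.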

Additional observations from a re-analysis of the deposited data

Results flagged for a closer look

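In all, 45 groups of 7 mice were examined, each being 1 gene in 1 tissue and genotype. Distances were taken on the log2 of CPM plus 1. On this scale 4 groups held a mouse whose distance from the others was beyond Dixon's 95% critical value, and chance gives about 1 in 20. The flags depend on this scale, and the values below are given in CPM. Kcnmb1 in KO endometrium was at 30.4 CPM in mouse 13, and the 6 other mice were between 0 and 2.18 CPM. This was the endometrium with 13732 CPM of smooth muscle markers. Gja1 in WT endometrium was at 3.54 CPM (3 counts) in mouse 10 and between 18.6 and 45.1 CPM in the others. Ednra was at 0 CPM in the KO endometrium of mouse 14, where the others held 3.38 to 4.93 CPM, and at 0 CPM in the WT myometrium of mouse 7, where the others held 5.18 to 18.8 CPM. Both values of 0 lie under the floor of 3 counts of these libraries. Of the 7 KO endometria, only 2 held more than 3 counts of Ednra, so most of the others lie at or under the floor too.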

How the results depend on the processing

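The count of called genes of the set was 5 (WT) and 6 (KO) for endometrium against myometrium, and it stayed within 1.5 times of these under every alternative, with 4 to 6 and 5 to 6 when each mouse was left out. Genotype and interaction counts stayed at 0 under every alternative. The uterus contrasts moved more. For uterus against myometrium in WT (2) the count was 4 with DESeq2, 5 with the filter at 10 CPM and 2 to 5 leaving out each mouse. In KO (1) it was 2 with DESeq2, with relative log expression factors and with the filter at 10 CPM, 0 with spike-in scaling, 3 with the replicate block and 0 to 2 leaving out each mouse. For uterus against endometrium in WT (1) it was 2 with DESeq2 and with all 6 groups in a single fit, 3 with spike-in scaling and with the replicate block and 0 to 4 leaving out each mouse. In KO (1) it was 0 with spike-in scaling, 2 with the replicate block and 0 to 2 leaving out each mouse. Beyond the calls named in the report, the block on the mouse changed none. Spike-in scaling moved the median of all genes by 0.20 (WT) and 0.50 (KO) on the log2 scale for endometrium against myometrium and by 0.71 (WT) and 0.43 (KO) for uterus against myometrium. Under it Gja1 in KO turned from -0.35 to 0.12 (adjusted p = 0.843) between the layers, Gja1 in WT uterus was called higher than in myometrium (1.38, adjusted p = 0.00900), Oxtr (-1.54) and Ednra (-0.95) in KO lost their layer calls (Ednra also with the first repeat library alone, -1.22, when Ptgfr was called), and Kcnma1 lost its uterus calls. The cause was not tested. Ptgfr, Chrm2 and Chrm3 stayed at 3 counts or fewer in all but 3 samples. The cause was not tested, and the Chrm3 model of the NCBIM37 annotation spans 1949 bases, so whether tagged 5′ ends fall outside the counted model is not known.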
